A study of Mus musculus with 8 samples.

Results

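The metabotropic glutamate receptors *Grm2*, *Grm3*, *Grm4*, *Grm5*, *Grm7* and *Grm8* were taken as a family of listed genes, with every array probe whose RefSeq accession names one of them. These 6 genes had 9 probes among the 55681 probes of the array, which named 20660 genes in all. The probes were *Grm2* A_55_P2171348, *Grm3* A_51_P486543, *Grm4* A_55_P2073682 and A_55_P2010376, *Grm5* A_55_P2033425, A_55_P2112464 and A_55_P2316783, *Grm7* A_66_P114461, and *Grm8* A_55_P1996702.

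Hippocampal RNA came from adult male Muta Mouse, 9 weeks of age, a transgenic strain that carries a bacterial reporter gene for counting mutations, in control and exposed mice alike. BaP (benzo[*a*]pyrene, a polycyclic aromatic hydrocarbon) was given daily in olive oil by gavage, on 3 days and each time at 70 mg/kg bw, and control mice received the vehicle at 0 mg/kg bw. Tissue was taken 24 hr after the last dose, and each of 4 control and 4 BaP-exposed mice was measured on its own array, although the labels speak of larger groups of animals. On each array the mouse RNA was labelled with Cy5 and a commercial universal mouse reference RNA with Cy3, without a dye swap, and the value analysed was the log2 ratio of Cy5 over Cy3. For BaP mice 3 and 4 and control mice 3 and 4, which filled the second row of the slide, the sample title and the source name give opposite groups. The titles were used, and values under the source names are given beside them where they turn a receptor's sign or a list's.

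Glutamate, the main excitatory transmitter of the hippocampus, acts on ion channels and on these slower receptors, which are coupled to G proteins. The group I receptor mGluR5, encoded by *Grm5*, sits mostly after the synapse and works through Gq, phospholipase C and calcium release, and it takes part in forms of synaptic plasticity in the hippocampus. The group II receptors, encoded by *Grm2* and *Grm3*, and the group III receptors, encoded by *Grm4*, *Grm7* and *Grm8*, work through Gi/o proteins, lower cyclic AMP and mostly restrain transmitter release. *Grm3* is also transcribed in astrocytes, *Grm2* is prominent in dentate granule cells, and mGluR7 is found in the active zone of nerve terminals.

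All 9 probes were well above the local background in Cy5 on all 8 arrays, which held for 51.1% of the probes on the array. All of them therefore passed the filter for the test, which asked for this on at least 4 of the 8 arrays and kept 32600 probes of 15090 named genes. Median Cy5 intensities per array ran from 108 to 174 over a median background of 67 to 71, and any pair of arrays correlated at 0.964 or more over all probes. Control mouse 1 had 1483 spots marked as outliers by the scanner software, where the other arrays had 310 to 371, and its *Grm2* spot was one of them. The tissue label was checked on marker genes. Transcripts of hippocampal fields stood above the reference in control mice, with log2 ratios of 7.31 for *Mpped1* of CA1, 6.16 for *Grik4* of CA3 and 4.60 for *Lct* of dentate granule cells. Of the markers of other tissues, *Gabra6* and *Cbln3* of the cerebellum and *Alb* of the liver did not pass the filter. The other 2 cerebellar markers passed it, with control log2 ratios of 2.78 for *Cbln1* and 0.41 for *Pcp2*, and so did the other 2 liver markers, with 1.15 for *Apoa2* and 0.95 for *Serpina1a*.

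All 6 receptor genes gave a Cy5 signal in the hippocampus, and the raw spot medians differed widely between their probes. The brightest *Grm5* probe had spot medians of 9404 to 16600 in Cy5 over the 8 arrays and 89 to 116 in Cy3. *Grm7* had 1364 to 2511 in Cy5 and 52 to 64 in Cy3. At the other end, the second *Grm4* probe had 129 to 250 in Cy5 and 87 to 145 in Cy3. Signals of different probes also depend on the probe, so they give no order of abundance between the receptors.

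**Figure D1:**
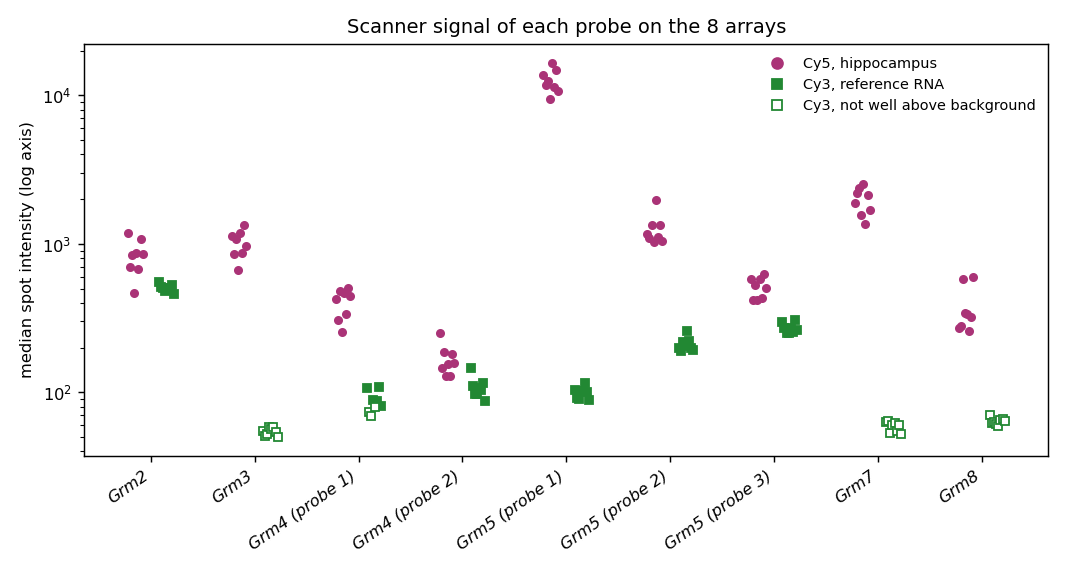
Median spot intensity of each receptor probe on the 8 arrays (log axis), in Cy5 for hippocampal RNA (circles) and in Cy3 for the reference RNA (squares, open where the spot was not well above background). The Cy3 squares of *Grm3*, *Grm7* and *Grm8* are open on all arrays, and the probes of *Grm4* and *Grm5* are numbered by falling Cy5 signal.

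The first comparison was the level of each receptor in the control hippocampus against the universal reference RNA. The control mean was above the reference for all 9 probes, and 8 of 9 probes were called higher by limma, which asked for an adjusted p of 0.05 or less together with a difference of 1.5-fold or more, where 53.1% of all tested probes were called and 30.8% were called higher. The filter read Cy5 alone, so a probe dim in Cy3 had to differ, and the calls of *Grm3*, *Grm7* and *Grm8*, whose reference signal was not measured on any array, are not read as results. The scale of a ratio over a weak reference also depended on the processing: with the scanner's own log ratio the control means were 9.03 for the brightest *Grm5* probe, 3.97 for the brighter and 1.01 for the dimmer *Grm4* probe, 7.73 for *Grm3*, 8.96 for *Grm7* and 5.76 for *Grm8*. For *Grm5*, the group I receptor, the control mean of the brightest probe was a log2 ratio of 7.51 ± 0.05 (SD, n = 4), or 183-fold after the normexp correction used here. Its other probes gave 2.94 ± 0.17 and 1.22 ± 0.19, both called. The 3 *Grm5* probes thus agreed in direction and differed in size, and which transcripts each of them binds is not known here.

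Of the group II receptors, *Grm2* had a control mean of 0.97 ± 0.18 (SD, n = 3, without the outlier spot), or 1.96-fold, with a limma adjusted p of 3.84e-06. For *Grm3* the reference was not well above background on any of the 8 arrays, which held for 4.78% of the tested probes. Its control log2 ratio of 4.06 ± 0.19 (SD, n = 4) therefore rests on a Cy3 signal near background, and a bound is given beside it. By this bound, hippocampal RNA was at least 15.7-fold above the lowest measurable Cy3 signal in control mice and at least 15.1-fold in BaP-exposed mice. Such a bound sets the mean Cy5 value against, on each array, the higher of the lowest Cy3 signal well above background and the probe's own Cy3 signal.

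Of the group III receptors, *Grm7* and *Grm8* also had a reference signal not well above background on any array. *Grm7* was at least 34.8-fold above it in control mice and at least 26.8-fold in BaP-exposed mice, with a control log2 ratio of 5.23 ± 0.28 (SD, n = 4). *Grm8* was at least 5.61-fold and at least 4.86-fold above it, with a control log2 ratio of 2.56 ± 0.60. The brighter *Grm4* probe was 4.57-fold above the reference, at 2.19 ± 0.39, with Cy3 well above background on 2 of the 4 control arrays. The dimmer *Grm4* probe was 1.46-fold above it, at 0.54 ± 0.10, which is under the fold threshold. The reference is a single RNA pool in 1 dye, so its own spread is not part of these tests and a dye bias remains in each ratio.

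The second comparison asked which receptor transcripts differ between BaP-exposed and control mice. None of the 9 probes was called by limma on the same terms, against 3 of 32600 tested probes, or 0.0092%. Those 3 probes, all lower in BaP-exposed mice, were of *Hbb-bs*, *Alas2* and *Gm15772*, the last named after its value was seen. At an unadjusted p of 0.05, 1 of the 9 receptor probes passed, the brightest of *Grm5*, where 8.76% of all tested probes did. A gene-wise F test gave the same counts for the receptors, 0 called and 1 at an unadjusted p of 0.05. The control and exposed groups overlapped for all 9 probes, where 5.06% of the tested probes had groups that did not overlap. Adjusted p-values of the receptor probes ran from 0.570 to 0.942.

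The brightest *Grm5* probe had log2 ratios of 7.45, 7.55, 7.56 and 7.50 in control mice 1 to 4. In BaP-exposed mice 1 to 4 it had 7.53, 7.31, 7.14 and 7.24. BaP mice 2, 3 and 4 lay below every control mouse and BaP mouse 1 lay within their range. The difference was −0.21 (SE 0.09, 95% interval −0.42 to −0.001, limma adjusted p = 0.570), and an exact 2-sided permutation test over mice gave p = 0.0857, where 0.0286 is the smallest it can give. In the Cy5 channel alone the difference was 0.04 (95% interval −0.15 to 0.23), so its sign was not the same in the ratio and in Cy5, and under the source names it was 0.13. Within the first slide row the ratio differed by −0.08 and within the second by −0.34.

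The other *Grm5* probes differed by less. The second probe had log2 ratios of 2.72, 2.94, 2.99 and 3.13 in control mice and 3.09, 2.84, 2.64 and 2.73 in BaP-exposed mice. The third had 1.11, 1.02, 1.31 and 1.45 in control mice and 1.16, 1.21, 0.94 and 1.21 in BaP-exposed mice. The control and exposed values overlapped for both probes. Their differences were −0.12 (SE 0.12) and −0.09 (SE 0.11), with limma adjusted p-values of 0.793 and 0.824, and both were positive in the Cy5 channel alone, at 0.06 and 0.03, and under the source names, at 0.25 and 0.21. All 3 *Grm5* probes thus changed sign between the ratio and the Cy5 channel.

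*Grm2*, whose product is a presynaptic autoreceptor, had log2 ratios of 0.99, 1.14 and 0.79 in control mice 2, 3 and 4. It had 0.98, 1.01, 1.02 and 1.30 in BaP-exposed mice 1 to 4. BaP mouse 4 was the highest of all, and the other values overlapped. The difference was 0.10 (SE 0.12, 95% interval −0.16 to 0.37, limma adjusted p = 0.818), and it was −0.01 when the outlier spot of control mouse 1 was kept and −0.12 under the source names. It was 0.20 in the Cy5 channel alone. With median-centring of the arrays in place of loess it was 0.34, where the median of all tested probes was 0.17.

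*Grm3*, which is transcribed in neurons and glia, had log2 ratios of 4.16, 4.03, 4.23 and 3.80 in control mice. In BaP-exposed mice it had 4.09, 4.00, 4.28 and 4.01. BaP mouse 3 lay above every control mouse, and the other BaP-exposed mice lay within the control range. The difference was 0.04 (SE 0.11, 95% interval −0.21 to 0.28, limma adjusted p = 0.942). In the Cy5 channel alone it was 0.10 (95% interval −0.07 to 0.28), and under the source names the ratio differed by −0.09. The 5 astrocyte markers had a median difference of −0.05, with none called.

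*Grm7* encodes a presynaptic group III receptor. Its log2 ratios were 4.89, 5.26, 5.56 and 5.20 in control mice and 5.17, 4.75, 4.94 and 4.89 in BaP-exposed mice. BaP mouse 2 lay below every control mouse, and the other BaP-exposed mice lay within the control range. The difference was −0.29 (SE 0.14, 95% interval −0.61 to 0.03, limma adjusted p = 0.588, exact 2-sided permutation p = 0.143). It was −0.18 without control mouse 3 and −0.40 without control mouse 1. In the Cy5 channel alone it was −0.24 (95% interval −0.52 to 0.04), and under the source names it was 0.18. Within the first slide row the difference was −0.11 and within the second −0.47, and with median-centring it was −0.10.

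*Grm8* varied more between mice than it differed between groups. Its log2 ratios were 1.88, 2.26, 3.22 and 2.87 in control mice and 2.35, 2.17, 2.09 and 3.15 in BaP-exposed mice. Control mice 3 and 4 and BaP mouse 4 lay at 2.87 or above and the other 5 mice between 1.88 and 2.35. The pooled SD within groups was 0.545, larger than that of 98.4% of tested probes, whose median was 0.151. The difference was −0.12 (SE 0.30, 95% interval −0.80 to 0.56, limma adjusted p = 0.932) and became 0.10 without control mouse 3 and 0.31 under the source names. The 3 high mice were all in the second row of the slide, and the difference was 0.19 within the first row and −0.43 within the second.

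*Grm4* is reported from both of its probes, which differed in direction. The brighter had log2 ratios of 1.94, 2.13, 2.76 and 1.93 in control mice and 2.45, 2.18, 2.06 and 2.47 in BaP-exposed mice. The dimmer had 0.57, 0.42, 0.66 and 0.52 in control mice and 0.30, 0.34, 0.39 and 0.64 in BaP-exposed mice. With the dimmer probe, BaP mice 1, 2 and 3 lay below every control mouse and BaP mouse 4 lay near the highest. The differences were 0.10 (SE 0.18, 95% interval −0.31 to 0.50, limma adjusted p = 0.897) and −0.12 (SE 0.10, 95% interval −0.34 to 0.09, limma adjusted p = 0.720).

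**Figure D2:**
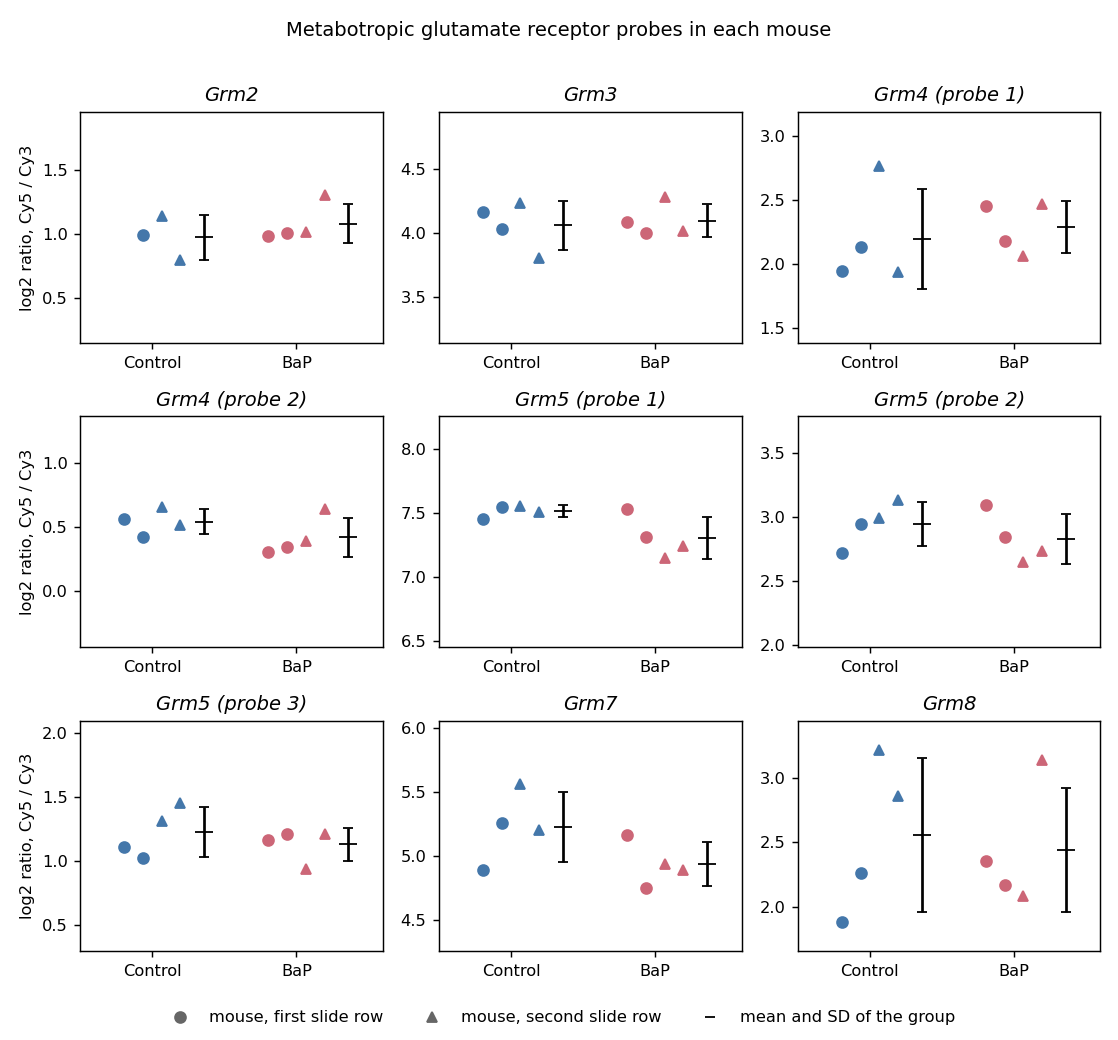
Log2 ratio of Cy5 over Cy3 for each receptor probe in each mouse, with circles for the first and triangles for the second row of the slide, control mice in blue and BaP-exposed mice in red, and the mean and SD of the group in black. Every panel spans the same number of log2 units, and the mice of both groups overlap in all 9 panels.

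Over the family, 6 probes had a lower and 3 a higher mean log2 ratio in BaP-exposed mice, with a median difference of −0.12 where that of all tested probes was −0.004. With 1 probe per gene, the brightest, 3 genes were lower and 3 higher, with a median of −0.04. The median size of a difference was 0.12 for the receptors and 0.09 for all tested probes. Median-centring of the arrays in place of loess moved the median of all probes by 0.17, and the count of lower probes was then 3, or 6 when taken relative to that median. In the Cy5 channel alone, 3 of the 9 probes were lower, and under the source names also 3. The 95% interval lay within a 1.5-fold change both ways for 7 of the 9 probes, the exceptions being *Grm7*, with a lower bound of 0.656-fold, and *Grm8*, with bounds of 0.576-fold and 1.47-fold. In this bulk tissue, fewer cells of a type and less RNA per cell cannot be told apart.

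**Figure D3:**
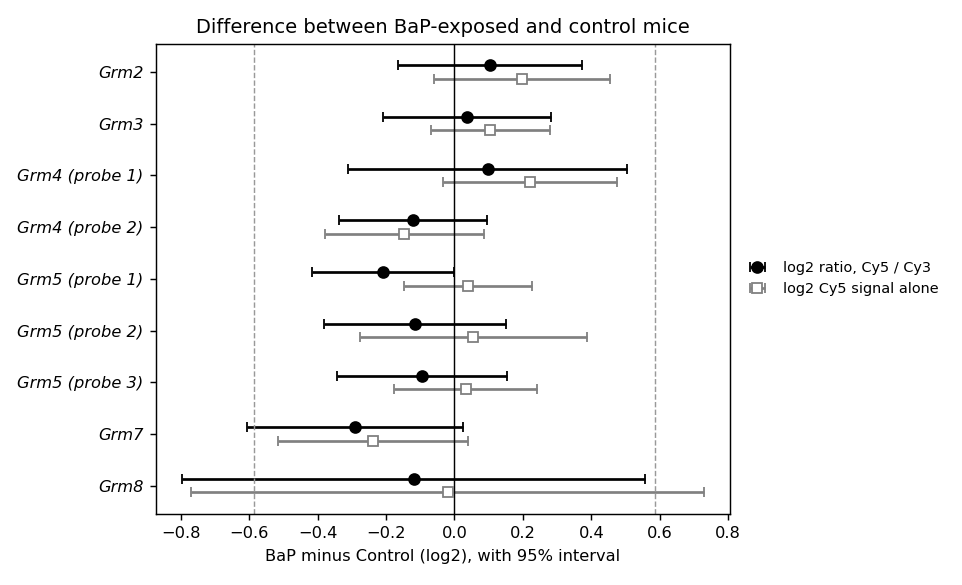
Difference of BaP-exposed minus control mice for each receptor probe, with its 95% interval, for the log2 ratio (filled circles) and for the log2 Cy5 signal alone (open squares), with dashed lines at a 1.5-fold change. The intervals of *Grm7* and *Grm8* pass the lower dashed line for the ratio, and the 3 *Grm5* probes lie on opposite sides of 0 in the 2 readings.

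The genes that carry the receptors' signals were read on 1 probe per gene. None of them was called by limma, against the same 0.0092% of all tested probes. In the group I arm, which holds the Gq proteins, phospholipases C, the IP3 receptor, protein kinases C and their target channels, all 13 genes were tested, with 9 higher, 4 lower and a median difference of 0.03. The mean of the list ran from 2.45 to 2.538 in control mice and from 2.542 to 2.65 in BaP-exposed mice, and the ranges overlapped under the source names. For the other pathway lists the ranges of these means overlapped by title. How often the ranges part this narrowly for lists of other genes was not tested. *Trpc5*, a cation channel opened downstream of Gq, had log2 ratios of 2.41 to 2.80 in control mice and 2.91 to 3.06 in BaP-exposed mice. These ranges did not overlap, as for 5.06% of all tested probes, and the difference was 0.46 (SE 0.10, limma adjusted p = 0.354), but 0.13 with overlapping groups under the source names. *Dgkz*, a kinase that removes diacylglycerol, differed by 0.40 (SE 0.14, limma adjusted p = 0.516), and *Plcb4*, a phospholipase C, by 0.26 (SE 0.16, limma adjusted p = 0.648).

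In the Gi/o arm, with the inhibitory G proteins, adenylyl cyclases and G protein-gated potassium channels, all 15 genes were tested, with 6 higher, 9 lower and a median difference of −0.02. The potassium channel subunit *Kcnj6* differed by 0.32 (SE 0.11, limma adjusted p = 0.509). *Kcnj9*, another subunit of these channels, differed by −0.16 (SE 0.17, limma adjusted p = 0.799), and the cyclase *Adcy9* by 0.17 (SE 0.12, limma adjusted p = 0.674). The groups overlapped for every gene of this arm, and under the source names for all but *Gnai1*, named after its value was seen. *Gnai1* then differed by 0.34 (limma adjusted p = 0.918). Of all tested probes 5.06% did not overlap by title, and the share under the source names is not given.

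Of the anchoring and regulating proteins, 18 of 19 were tested, with 7 higher, 11 lower and a median difference of −0.06, and *Elfn1*, a transsynaptic partner of mGluR7, did not pass the filter. *Rgs4*, which speeds the return of G proteins to the resting state, differed by −0.42 (SE 0.17, limma adjusted p = 0.539). The scaffold *Homer3* differed by 0.26 (SE 0.13, limma adjusted p = 0.588) and the PDZ protein *Grip1* by −0.26 (SE 0.11, limma adjusted p = 0.544). The groups did not overlap for 2 of the 18 genes, *Grasp* and *Siah1a*, named after their values were seen, which differed by 0.25 and 0.21, where 5.06% of all tested probes had groups that did not overlap. Under the source names they differed by 0.15 and 0.08, and their groups overlapped. At an unadjusted p of 0.05, which 8.76% of all tested probes passed, 5 of these 18 genes passed, 2 of 13 in the group I arm and 1 of 15 in the Gi/o arm.

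Of the genes that make and clear glutamate and the peptide NAAG, an agonist of mGluR3, 12 of 13 were tested, with 4 higher, 8 lower and a median difference of −0.06, and *Naalad2* did not pass the filter. The cystine/glutamate exchanger *Slc7a11* differed by −0.22 (SE 0.16, limma adjusted p = 0.686), and the vesicular transporter *Slc17a6* by 0.19 (SE 0.29, limma adjusted p = 0.867). None of the 12 passed an unadjusted p of 0.05, against the same 8.76% of all tested probes. Under the source names none of the genes in these 4 lists was called, and the list medians, in the order given, were 0.04, 0.13, 0.09 and 0.09. Of the genes named, *Plcb4* then differed by −0.19, *Kcnj9* by 0.02, *Rgs4* by 0.24, *Grip1* by 0.01 and *Slc17a6* by −0.17, each with the opposite sign, and *Dgkz* differed by 0.01. *Folh1*, the enzyme that cleaves NAAG, named after its value was seen, differed by −0.06 by title and by 0.53 under the source names (limma adjusted p = 0.918). Its groups did not overlap under the source names. The share of all tested probes without overlap was 5.06% by title and is not given for the source names.

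**Figure D4:**
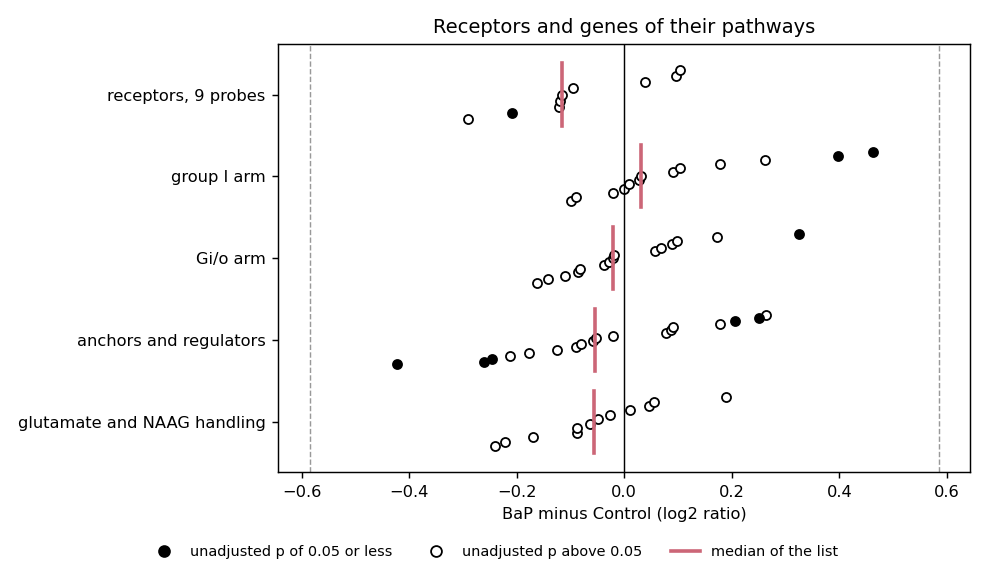
Difference of BaP-exposed minus control mice in log2 ratio for the 9 receptor probes and for 1 probe of each tested gene in 4 pathway lists, filled where the unadjusted p was 0.05 or less, with the median of each list in red and dashed lines at a 1.5-fold change. No point passes the dashed lines.

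The makeup of the samples was read from marker lists beside these differences. The 6 dentate granule cell markers were all higher in mean in BaP-exposed mice, with a median difference of 0.40 and none called, and the mean of the list ran from 1.75 to 2.23 in control mice and from 2.20 to 2.78 in BaP-exposed mice. The 7 choroid plexus markers were also all higher in mean, with a median of 0.83 and none called, and the means of the list overlapped, from 2.25 to 4.00 in control mice and from 1.77 to 5.02 in BaP-exposed mice. Of the 3 erythroid markers, *Hbb-bs* fell by 1.90 (limma adjusted p = 0.00234) and *Alas2* fell by 1.05 (limma adjusted p = 0.0444), and *Hba-a1* differed by −0.94 without being called (limma adjusted p = 0.0755). None of the other markers was called. The median difference was 0.27 for the CA1 list, −0.02 for CA3, 0.05 for oligodendrocytes and their precursors, −0.20 for thalamus and habenula, −0.53 for cerebellum and −0.33 for liver. The CA3 list held 2 genes higher and 2 lower, and its brightest, *Grik4*, differed by −0.64 (limma adjusted p = 0.368). In the CA1 list, with 3 higher and 2 lower, *Pou3f1* differed by 0.52 (limma adjusted p = 0.490) and *Mpped1* by −0.34. The groups of *Grik4* and *Pou3f1* did not overlap, as for 5.06% of all tested probes. With the source names as groups *Grik4* differed by 0.31, *Pou3f1* by 0.28 and *Mpped1* by 0.12, and their groups overlapped. Under the source names the median difference was −0.04 for the dentate granule cell markers, with 2 of 6 higher, −0.67 for the choroid plexus markers, with 0 of 7 higher, and 0.15 for the CA3 markers, and it was 0.12 for the CA1 markers. *Hbb-bs* then differed by −0.11 and *Alas2* by 0.01, neither called. The part of cell makeup in the receptor values was not tested.

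The probes most like each receptor over the arrays are given as a description of these 8 mice. *Grm7* was closest to *Npas1* (Pearson r = 0.986) and *Sez6* (r = 0.984) over 8 arrays, and *Grm5* to *Rgs19* (r = 0.979) and *Ndufa5* (r = 0.975). *Grm2* was closest to *Ing5* (r = 0.980) and *Ifitm1* (r = 0.971) over its 7 arrays. *Grm3* was closest to *Alkbh6* (r = 0.957) and *Mcrip2* (r = 0.955), *Grm4* to *Mei4* (r = 0.966) and *Rap2a* (r = 0.963), and *Grm8* to *Tmem192* (r = 0.978) and *Haus1* (r = 0.975). Between 25 and 69 probes reached r of 0.9 with each receptor, and all values of an array share its labelling and its reference channel.

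BaP is a ligand of the aryl hydrocarbon receptor, a transcription factor that binds the core motif GCGTG, so the promoters were read for these letters on both strands, where the reverse strand shows CACGC. RefSeq promoter windows of the mouse assembly GRCm38.p6, 250 bases before to 50 after a transcript start, were at hand for *Grm2*, *Grm3*, *Grm7* and *Grm8*. The motif stood in 3 of their 7 windows and in 2 of the 4 genes, and 32.4% of all 32851 windows of this length hold it. A window of *Grm7* and one of *Grm8* are shown because they hold the motif, which is in capitals. The *Grm7* window lies at chr6:110645262-110645561 on the + strand and has CACGC at base 147 and GCGTG at base 163, counted from the 5′ end of the window, and the third window with the motif overlaps it.
*Grm7*: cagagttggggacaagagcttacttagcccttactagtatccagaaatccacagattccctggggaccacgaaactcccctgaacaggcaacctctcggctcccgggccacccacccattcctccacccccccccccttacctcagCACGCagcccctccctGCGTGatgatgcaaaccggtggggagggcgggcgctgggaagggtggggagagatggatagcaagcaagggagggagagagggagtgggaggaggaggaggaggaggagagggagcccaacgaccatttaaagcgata
The *Grm8* window lies at chr6:28135097-28135396 on the − strand and has GCGTG at base 176.
*Grm8*: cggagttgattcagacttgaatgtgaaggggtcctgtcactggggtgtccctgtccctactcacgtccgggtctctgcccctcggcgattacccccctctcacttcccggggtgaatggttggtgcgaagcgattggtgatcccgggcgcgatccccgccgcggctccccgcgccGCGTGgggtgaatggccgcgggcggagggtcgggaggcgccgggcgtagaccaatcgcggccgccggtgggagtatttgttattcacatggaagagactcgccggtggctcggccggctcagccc
Neither gene was called in BaP-exposed mice, and the windows of *Grm2* and *Grm3* do not hold these letters.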

How the data were processed

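The authors deposited scanner output in which each spot has a Cy5 and a Cy3 intensity, local background, outlier marks and a log10 ratio, made with Agilent Feature Extraction per the labels, and a table of log2 ratios that the study describes as normalized by LOWESS. The study tested by a microarray analysis of variance, which was not at hand, so limma was used.

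Spot medians were used because the files hold no means. They were background corrected by normexp (offset 50), control spots and outlier spots were left out, ratios were normalized within arrays by loess and spots of a probe averaged (limma 3.58.1, R 4.3.3). Probes whose Cy5 signal was well above background on 4 or more of the 8 arrays were fitted with lmFit and eBayes and adjusted by Benjamini-Hochberg over all 32600. The scripts were tested on simulated data. Permutation tests were exact over the 70 assignments of mice, or those of the mice with a value. The p-values measure the spread between the mice arrayed. Python 3.11.15, pandas 2.3.3, numpy 2.4.6 and scipy 1.17.1 served for summaries.

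Probes were named through a RefSeq gene table, which named 27235 of 28685 probes with such an accession. Pathway genes were read on the probe brightest in Cy5, and those called and the 3 with the largest difference were named, except 1 gene that is not reported here. Up to 3 markers per list were taken by brightness, and the 2 genes of highest r per receptor were named. The receptors and lists were chosen with earlier results of these data known. The alternatives were other background, scaling, filter and test settings, slide rows, the replicate number as a block, the source names as groups, and each mouse left out.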

Additional observations from a re-analysis of the deposited data

Results flagged for a closer look

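*Grm2* in BaP mouse 4 stood apart from the other BaP-exposed mice. Its log2 ratio was 1.30 where the other 3 had 0.98 to 1.02, so the gap to the nearest mouse was 0.885 of the range of the group, past the critical value of Dixon's test for 4 samples. Of 17 groups of 4 mice examined in this way, 1 was set apart, where chance alone gives 0.85.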

How the results depend on the processing

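None of the 9 receptor probes and none of the pathway genes was called in BaP-exposed mice in any of the 23 other settings, in which the adjusted p of a receptor probe was never below 0.279. Numbers of probes called over the whole array were 3 in the analysis reported, 0 with the scanner's log ratio, with the gene-wise F test, within either slide row and with groups from the source names, 5 without the filter, 6 in Cy5 alone, and 1 to 3 with each mouse left out. Signs turned as follows, and the cause was not tested. The brighter *Grm4* probe gave −0.33 with the scanner's log ratio and −0.086 within the second slide row. The *Grm5* probes, from brightest to dimmest, gave 0.025, 0.077 and 0.080 with median-centring, 0.039, 0.055 and 0.033 in Cy5 alone, and 0.13, 0.25 and 0.21 with the source names, and the 2 dimmer ones gave 0.14 and 0.12 within the first row. *Grm2* gave −0.037 with the authors' log2 ratios, −0.013 with outlier spots kept and −0.12 with the source names. *Grm3* gave −0.053 within the first row and −0.090 with the source names, *Grm8* 0.19 and 0.31, and *Grm7* 0.18 with the source names. With each mouse left out, *Grm7* ran from −0.40, without control mouse 1, to −0.18, without control mouse 3, *Grm3* ran from −0.047 to 0.10, turning without BaP mouse 3 or control mouse 4, and *Grm8* from −0.35 to 0.10, turning without control mouse 3. The other receptor probes kept their sign, with ranges of 0.013 to 0.19 for *Grm2*, 0.011 to 0.29 and −0.20 to −0.082 for the brighter and dimmer *Grm4* probe, and −0.28 to −0.15, −0.20 to −0.053 and −0.16 to −0.019 for the *Grm5* probes from brightest to dimmest. With the replicate number as a block, 3 probes were called over the array, 0 of them receptors, and the SE of the brightest *Grm5* probe was 0.11 in place of 0.09. Mice with the same number did not deviate together, since the correlations of their deviations were −0.35, 0.03, −0.01 and −0.01. Against the reference, the number of receptor probes called was 9 without background subtraction and with the scanner's log ratio, where the dimmer *Grm4* probe passed, 7 with median-centring, where *Grm2* did not, and 8 in the other settings fitted for it. The ratios of *Grm3*, *Grm7* and *Grm8* rest on a reference signal not well above background, and the 8 arrays limit precision for every probe.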
